A study of Ictidomys tridecemlineatus with 15 samples.

Results

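The genes of cholesterol synthesis and uptake were followed through the liver of the 13-lined ground squirrel (Ictidomys tridecemlineatus) by global run-on sequencing (GRO-seq). Members were 8 genes chosen by symbol, with earlier results of these data known: Hmgcs1, Sqle, Insig1, Idi1, Lss, Dhcr7, Fdft1 and Srebf2. Each was matched to the transcription units of the count table. Of these, 5 had a unit among the 6324 units of the table. Hmgcs1 and Insig1 each had a unit of their own, whereas Sqle, Lss and Srebf2 were counted together with a neighbour as Sqle:Znf572, Spatc1l:Lss and ENSSTOG00000016826:Srebf2, so that reads of the paired genes cannot be told apart. Idi1, Dhcr7 and Fdft1 were not analysed here.

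Cholesterol is built from acetyl-CoA through mevalonate, squalene and lanosterol, in a long series of enzymes that consumes much energy, and the liver is a main site of this synthesis. The enzymes and the uptake of lipoprotein cholesterol are controlled together: when membrane sterol is low, SCAP escorts the precursor of the transcription factor SREBP-2 out of the endoplasmic reticulum to be cleaved, and when sterol is high, INSIG proteins hold the pair back. INSIG1 is itself a target of the SREBPs, so that its transcription commonly follows that of the enzymes. In GRO-seq, polymerases already engaged on DNA are allowed to run on in isolated nuclei and the labelled RNA is sequenced. Reads thus stand for polymerase engaged at sampling rather than for stored RNA or for cholesterol itself.

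All animals were laboratory-housed females that carried implanted temperature loggers, each library came from the frozen liver of a different animal, and the labels name no drug or engineered allele in any group. The 5 states were summer active (SA, 3 livers, before hibernation began) and 4 stages of the winter torpor-arousal cycle: interbout aroused (IBA, 3 livers, warm between torpor bouts), entrance into torpor (Ent, 3 livers, cooling), early torpor (ET, 3 livers, cold) and late torpor (LT, 2 livers, cold). Ages were not given in the sources used here, and the nuclei came from whole liver, so that in every result below fewer cells of a type and less transcription per cell cannot be told apart. The livers were collected in 3 seasons. The ET livers came from the second season alone, the LT livers from the first and the IBA livers from the third, whereas SA and Ent mixed the first and the third. Any difference that involves ET therefore cannot be told apart from the season. The LT and IBA livers share no season either. A season term separates LT from IBA only through the SA and Ent livers.

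Total counts ranged from 3713883 to 8884763 per library. Levels are given as CPM, the counts scaled to a common library size after TMM normalization. They are shares of a library, so a change in total transcription between states would not show. Higher and lower below are thus relative to the other units. A unit was called different at p of 0.05 or less in the quasi-likelihood F test of edgeR, adjusted by Benjamini-Hochberg over all 6324 units. Hepatocyte markers were abundant in every library: the summed level of 10 marker units, among them those that hold ALB, Apob and Ttr, was 18062 to 28866 CPM in SA, 21785 to 29768 in IBA, 13515 to 16327 in Ent, 6528 to 11565 in ET and 7971 to 12177 in LT. Markers of other liver cells were thinly covered, with 1 unit for Kupffer cells and leukocytes, 4 for endothelial cells, 1 for stellate cells and 2 for cholangiocytes.

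Across the 5 states, transcription of Hmgcs1, Insig1, Sqle:Znf572 and Spatc1l:Lss differed and that of the Srebf2 unit was not called. These 4 of 5 units compare with 62.0% of all units called in the same test. At the stricter adjusted p of 0.001 only Insig1 among the members was called, where 25.5% of all units were. The adjusted p was 0.00038 for Insig1, 0.0043 for Hmgcs1, 0.024 for Sqle:Znf572, 0.035 for Spatc1l:Lss and 0.92 for the Srebf2 unit.

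**Figure D1:**
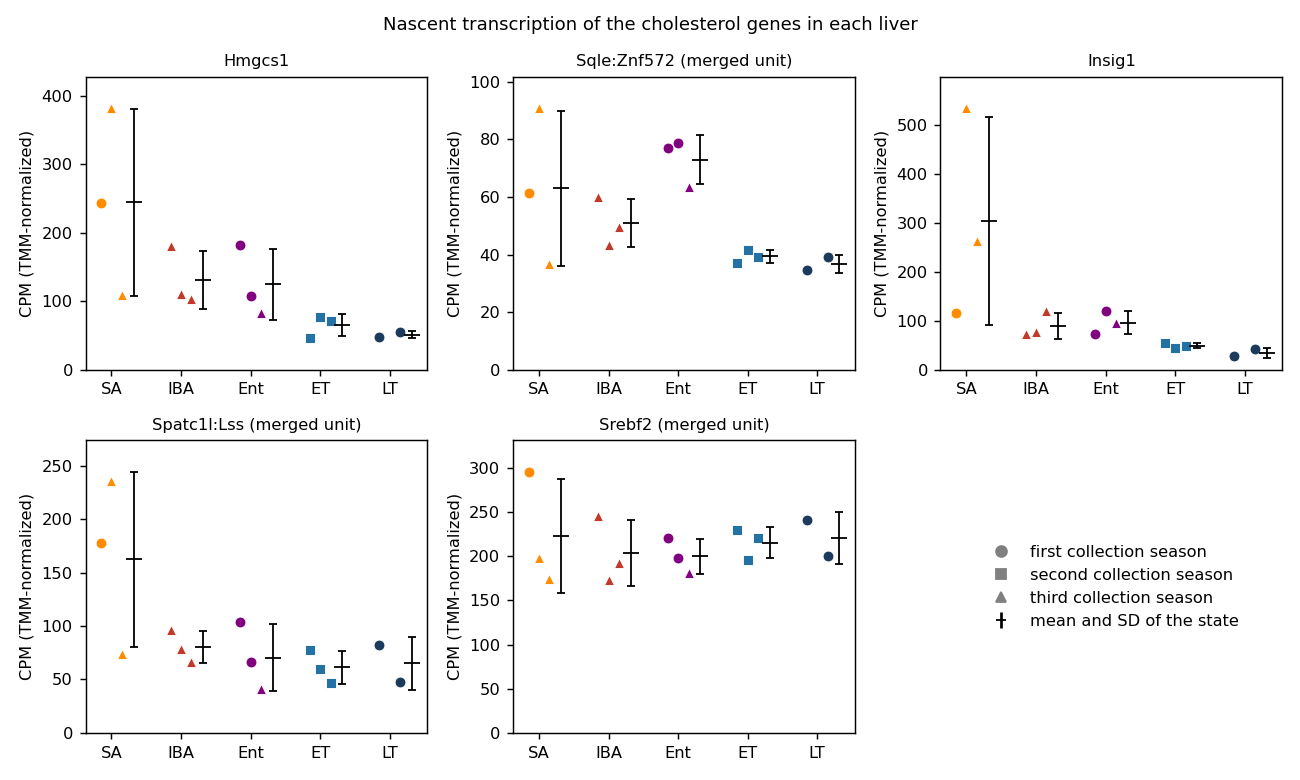
Each point is the TMM-normalized CPM of a unit in one liver, by state, with the mean and SD of the state beside the points and the collection season as the marker shape. In Hmgcs1 and Insig1 every ET and LT liver lies below every other liver, the SA livers are widely spread in 4 of the 5 panels, and the Srebf2 unit stays between 172.9 and 295.5 CPM throughout.

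Hmgcs1 encodes the cytosolic HMG-CoA synthase, an early enzyme of the mevalonate pathway. Its unit lies on the plus strand of chromosome 1 of HiC_Itri_2 (209926606 to 209952112, 25507 nt). In SA its level was 242.7, 381.5 and 108.5 CPM in replicates 1, 2 and 3, and in IBA it was 179.9, 110.6 and 102.8 CPM. In Ent it was 181.8, 108.1 and 83.0 CPM. In ET it was 46.1, 76.6 and 71.5 CPM, and in the LT replicates 1 and 3 it was 47.6 and 54.5 CPM. All 5 torpid livers (ET and LT) thus lay below every SA, IBA and Ent liver, while SA replicate 3 fell inside the IBA range.

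The squalene step is represented by Sqle:Znf572. Sqle encodes squalene epoxidase, an oxygen-dependent enzyme that is a point of control of the pathway. The unit spans 40527 nt on the minus strand of chromosome 6 (15300693 to 15341219) and had the lowest mean level per kilobase of the members in every state but Ent. Its level was 61.5, 90.8 and 36.7 CPM in SA and 60.0, 43.3 and 49.7 CPM in IBA. It was 77.0, 78.8 and 63.3 CPM in Ent, 37.1, 41.6 and 39.3 CPM in ET, and 34.5 and 39.0 CPM in LT. The Ent livers were all above the IBA livers, and the torpid livers were all below both, but SA replicate 3 lay among the torpid livers.

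Lss encodes lanosterol synthase, which closes the first sterol ring system from the product of SQLE. The unit Spatc1l:Lss covers 45855 nt of the minus strand of chromosome 18 (38760736 to 38806590). It stood at 177.4, 235.7 and 74.0 CPM in SA, against 96.6, 78.6 and 66.4 CPM in IBA and 104.0, 66.1 and 41.5 CPM in Ent. In ET it was 77.9, 59.7 and 46.8 CPM, and in LT 82.5 and 47.7 CPM. SA replicates 1 and 2 exceeded every winter liver, SA replicate 3 did not, and the 4 winter states overlapped one another.

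Insig1, the sterol-regulated retention factor for SCAP, lies on the minus strand of chromosome 2 (3199386 to 3218625, 19240 nt). Its level was 115.9, 534.4 and 262.2 CPM in SA, 73.0, 75.9 and 119.7 CPM in IBA and 72.6, 120.3 and 94.4 CPM in Ent. In ET it was 53.9, 43.8 and 49.0 CPM, and in LT 27.4 and 41.1 CPM. SA replicates 2 and 3 were above every winter liver, SA replicate 1 lay just below IBA replicate 3 and Ent replicate 2, and every torpid liver was below every other liver. The SA livers differed 4.61-fold among themselves, the widest spread of any member in any state.

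Srebf2 encodes the precursor of SREBP-2 itself. Its merged unit, 68512 nt on the minus strand of chromosome 4 (7095189 to 7163700), had 295.5, 197.8 and 174.2 CPM in SA and 245.8, 172.9 and 192.5 CPM in IBA. In Ent it had 220.8, 198.0 and 180.7 CPM, in ET 229.3, 196.2 and 220.6 CPM, and in LT 241.1 and 199.7 CPM. The 5 states overlapped completely.

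The spread among summer livers followed the animal in part. SA replicate 2 was the highest and SA replicate 3 the lowest of the 3 for Hmgcs1, Sqle:Znf572 and Spatc1l:Lss, and for Insig1 SA replicate 2 was again the highest but SA replicate 1 the lowest. The winter livers were closer to one another, and the LT pair for Hmgcs1 differed by 1.14-fold, against 3.52-fold across the SA livers. With every ET and LT liver below every SA, IBA and Ent liver, 2 of the 5 member units (Hmgcs1 and Insig1) were of a kind that made up 11.1% of all units.

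Per kilobase of unit, the order of the mean levels in SA was Insig1 (15.8 CPM per kb ± 11.0, SD, n = 3), Hmgcs1 (9.58 ± 5.35), Spatc1l:Lss (3.54 ± 1.79), the Srebf2 unit (3.25 ± 0.939) and Sqle:Znf572 (1.55 ± 0.668). The livers of neighbours in that order overlapped, except for the Srebf2 unit and Sqle:Znf572. In LT the Srebf2 unit came first at 3.22 CPM per kb ± 0.427 (SD, n = 2), ahead of Hmgcs1 at 2.00 ± 0.191, Insig1 at 1.78 ± 0.505, Spatc1l:Lss at 1.42 ± 0.537 and Sqle:Znf572 at 0.907 ± 0.0797, and Hmgcs1 and Insig1, like Insig1 and Spatc1l:Lss, overlapped. By state means, the Srebf2 unit thus had fewer reads per kilobase than Insig1 and Hmgcs1 in summer and more than both in late torpor. In SA its livers overlapped those of Hmgcs1. As a merged unit, its density is not that of Srebf2 alone. The Srebf2 unit had 2.97 CPM per kb ± 0.551 in IBA, where Hmgcs1 had 5.14 ± 1.66 and Insig1 4.65 ± 1.36 (SD, n = 3).

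The seasonal question is whether these genes differ between the summer liver and the winter liver as a whole, taken as the mean of IBA, Ent, ET and LT on the log2 scale with equal weights. Insig1, Hmgcs1 and Spatc1l:Lss were lower in winter, 3 of 5 units, against 44.3% of all units called in either direction and 23.5% called lower. Insig1 fell by 2.30 on the log2 scale (SE 0.30, adjusted p = 0.00012), which is 4.93-fold. Hmgcs1 fell by 1.51 (SE 0.30, adjusted p = 0.0018), or 2.84-fold, and Spatc1l:Lss by 1.23 (SE 0.30, adjusted p = 0.0063), or 2.34-fold. Sqle:Znf572 differed by -0.38 (95% interval -0.81 to 0.06, adjusted p = 0.144) and the Srebf2 unit by -0.08 (95% interval -0.42 to 0.25, adjusted p = 0.684). The median over the 5 members was -1.23, where the median over all units was -0.02.

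SA replicate 2 weighed most in these values. Without it Insig1 was at -1.62 (adjusted p = 0.00066), Hmgcs1 at -1.03 (adjusted p = 0.021) and Spatc1l:Lss at -0.86, no longer called (adjusted p = 0.061). Without SA replicate 3, the low summer liver, Sqle:Znf572 was called as well, at -0.66 (adjusted p = 0.0097). In a fit with season as a term and the ET libraries left out, the same 3 units were lower in winter: Insig1 by 1.82 (SE 0.37, adjusted p = 0.0073), Hmgcs1 by 1.46 (SE 0.36, adjusted p = 0.016) and Spatc1l:Lss by 1.32 (SE 0.35, adjusted p = 0.020). At an adjusted p of 0.001, Insig1 alone among the members was called, where 11.0% of all units were.

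**Figure D2:**
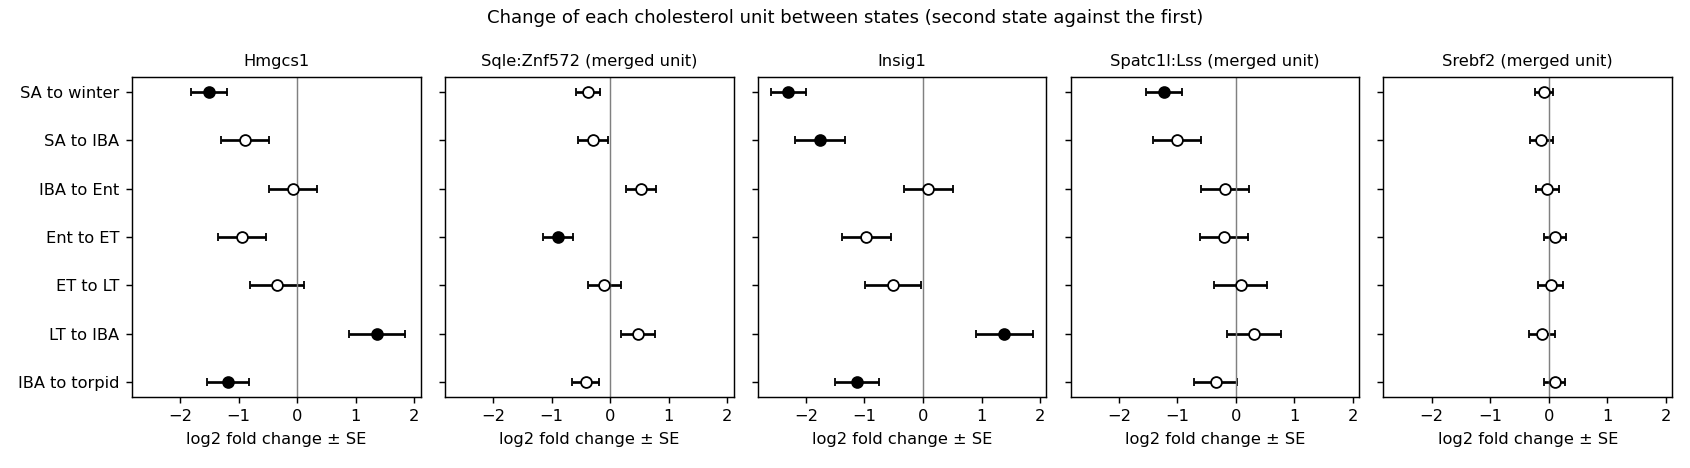
The log2 fold change (second state against the first) of each member unit with its SE is drawn for 7 comparisons, and filled points passed the adjusted p of 0.05. Filled points lie left of 0 for the seasonal comparison in Hmgcs1, Insig1 and Spatc1l:Lss, no point is filled for IBA to Ent or ET to LT, and the Srebf2 unit stays near 0 in all 7.

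The winter cycle was then followed in order, starting with the warm states. These comparisons share livers with one another and with the seasonal one, so their values are set side by side and not counted as separate evidence. From SA to IBA, 2 states in which the animals are warm, only Insig1 was called of the 5 members, against 5.22% of all units, and it fell by 1.76 (SE 0.43, adjusted p = 0.031), or 3.38-fold. Hmgcs1 differed by -0.90 (SE 0.41, adjusted p = 0.22) and Spatc1l:Lss by -1.01 (SE 0.41, adjusted p = 0.17), with 95% intervals of -1.78 to -0.01 and -1.90 to -0.12. The Insig1 call was lost without SA replicate 2 (-1.08, adjusted p = 0.081) and without any of the IBA replicates 1, 2 or 3 (adjusted p = 0.122, 0.107 and 0.066). Among the livers of the third season alone, 2 of SA and 3 of IBA, Insig1 fell by 2.15 (SE 0.36, adjusted p = 0.040). That subset leaves out SA replicate 1, the lowest SA liver for Insig1. The fit of all states without SA replicate 1 also gave -2.15.

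From IBA to Ent, as animals cooled back into torpor, 0 of the 5 members passed edgeR's test, against 16.1% of all units. None of the 5 passed an unadjusted p of 0.05 either, and DESeq2 and limma-voom each called 0. The largest difference was that of Sqle:Znf572, 0.52 higher in Ent (95% interval -0.03 to 1.07, adjusted p = 0.178), while Hmgcs1 differed by -0.07 (95% interval -0.95 to 0.81) and Insig1 by 0.09 (95% interval -0.81 to 0.99).

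From Ent to ET, Sqle:Znf572 was the member called, 1 of 5 against 28.8% of all units. It fell by 0.89 (SE 0.26, adjusted p = 0.020), or 1.86-fold, and the Ent and ET livers did not overlap. Hmgcs1 differed by -0.94 and Insig1 by -0.97, sizes like that of Sqle:Znf572 but with more spread among livers (adjusted p = 0.103 for each), and Spatc1l:Lss differed by -0.20 (95% interval -1.08 to 0.68). The Sqle:Znf572 call was lost without Ent replicate 1 (adjusted p = 0.061), Ent replicate 2 (0.061), ET replicate 1 (0.063) or ET replicate 3 (0.055). Insig1 was called without SA replicate 1 or 2 (adjusted p = 0.028 and 0.032) and Hmgcs1 without SA replicate 3 (adjusted p = 0.045).

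From ET to LT, 0 of 5 members passed edgeR's test, against 0.269% of all units, and again none had an unadjusted p under 0.05 or was called by DESeq2 or limma-voom. Insig1 showed the largest difference, -0.52, with a 95% interval of -1.56 to 0.53.

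From LT to IBA, the step from the cold to the rewarmed liver, Hmgcs1 and Insig1 were higher in IBA, 2 of 5 units against 49.8% of all units. Hmgcs1 was 1.36 higher on the log2 scale (SE 0.48, adjusted p = 0.031), which is 2.56-fold, and Insig1 was 1.39 higher (SE 0.49, adjusted p = 0.033), which is 2.62-fold. Sqle:Znf572 was 0.47 higher (95% interval -0.16 to 1.10, adjusted p = 0.196) and Spatc1l:Lss 0.30 (95% interval -0.69 to 1.30, adjusted p = 0.607). Neither call held with LT replicate 1 left out (adjusted p = 0.154 for Hmgcs1 and 0.200 for Insig1) or with LT replicate 3 left out (0.102 and 0.066), Hmgcs1 was also lost without IBA replicate 1 (0.102), and Insig1 without IBA replicate 3 (0.1005). With either LT library left out, LT is a single liver that the fit assumes to vary like the livers of the other states. With season as a term and ET left out, Hmgcs1 was 1.71 higher in IBA (adjusted p = 0.078) and Insig1 0.48 higher (adjusted p = 0.618).

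With ET and LT pooled as torpid livers, both genes were lower than in IBA, 2 of 5 units, against 59.5% of all units called in either direction and 30.3% called lower. Hmgcs1 fell by 1.19 (SE 0.36, adjusted p = 0.013), or 2.28-fold, and Insig1 by 1.13 (SE 0.37, adjusted p = 0.019), or 2.19-fold. Sqle:Znf572 differed by -0.42 (adjusted p = 0.131), Spatc1l:Lss by -0.35 (adjusted p = 0.436) and the Srebf2 unit by 0.10 (95% interval -0.28 to 0.48). The median over the members was -0.42, against -0.04 over all units. Hmgcs1 was no longer called without IBA replicate 1 (-0.89, adjusted p = 0.079), and Insig1 without IBA replicate 3 (-0.86, adjusted p = 0.104) or LT replicate 1 (-1.001, adjusted p = 0.073), while Sqle:Znf572 was called without SA replicate 3 (adjusted p = 0.039).

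The hepatocyte markers moved in the same direction in this comparison, with 9 of 10 units called lower in torpor and a median of -1.49. Between SA and winter 5 of the 10 were called lower, with a median of -0.68, and between SA and IBA 2 were called higher and none lower. Of the 4 endothelial units, 3 were called lower from IBA to torpor and 1 from SA to winter. Over all units, 30.3% were called lower from IBA to torpor and 23.5% from SA to winter. From SA to IBA, 150 of all 6324 units were called higher and 180 lower. The part of these marker changes in the values of Hmgcs1 and Insig1 was not tested.

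An upstream gene on the same strand can add reads where polymerase runs past its end. Among the units of the count table, such a unit lay within 20000 nt of 1 member. Genes without a unit were not searched, and no upstream unit was found for Spatc1l:Lss. LOC106144930 ends 10867 nt upstream of Insig1. Its level was 8.44, 43.7 and 26.9 CPM in SA, 26.7, 39.7 and 36.2 CPM in IBA, 18.0, 24.5 and 15.9 CPM in Ent, 9.57, 12.0 and 8.62 CPM in ET, and 2.87 and 7.66 CPM in LT. It was below Insig1 in every liver, and it was called lower in torpor than in IBA (-2.23, SE 0.42, adjusted p = 0.00059) and lower in winter than in SA (-0.94, SE 0.35, adjusted p = 0.048). SA replicate 2 had the highest level of both units, and the part of LOC106144930 in the Insig1 count was not tested. Upstream neighbours were sought for the members only. For the other list units named below, those higher in torpor included, reads from an upstream gene were not tested.

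The rest of the synthesis pathway was read from a list of enzymes from acetyl-CoA to cholesterol, of which 10 had a unit and 7 were not members. Between SA and winter, 4 of these 7 were lower, Msmo1 and Sc5d among them, and none was higher, against 44.3% of all units called and 23.5% called lower. Between IBA and torpor, 1 was higher and 2 were lower, against 59.5% of all units called. Msmo1, which removes methyl groups from the sterol core, had 154.3, 200.2 and 56.2 CPM in SA, and its winter livers ranged from 27.4 to 115.1 CPM. It was lower in winter by 1.31 (SE 0.32, adjusted p = 0.0057), although SA replicate 3 lay inside the winter range and the call was lost without SA replicate 2 (-0.93, adjusted p = 0.055). Its SA livers kept the order seen in Hmgcs1, with replicate 2 highest and replicate 3 lowest. Sc5d, a late desaturase, was more even: 212.6, 154.9 and 206.4 CPM in SA, all above the winter livers, then 126.0 to 148.3 in IBA, 96.4 to 122.9 in Ent, 75.6 to 96.6 in ET, and 52.5 and 53.5 in LT. It fell by 1.07 from SA to winter (SE 0.12, adjusted p = 4.2e-05) and by 0.98 from IBA to torpor (SE 0.14, adjusted p = 7.2e-05). Tm7sf2:Vps51:Zfpl1, the merged unit that holds a sterol reductase gene, was the one that was higher in torpor, by 0.42 (SE 0.14, adjusted p = 0.024), a call lost without IBA replicate 1 (0.082), IBA replicate 3 (0.084) or LT replicate 3 (0.078).

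Among the earlier enzymes, Ggps1, which makes geranylgeranyl diphosphate at a branch away from sterols, was higher in ET than in Ent by 0.53 (SE 0.14, adjusted p = 0.016). That call was lost without Ent replicate 1, Ent replicate 2 or ET replicate 1 (adjusted p = 0.060, 0.051 and 0.058).

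**Figure D3:**
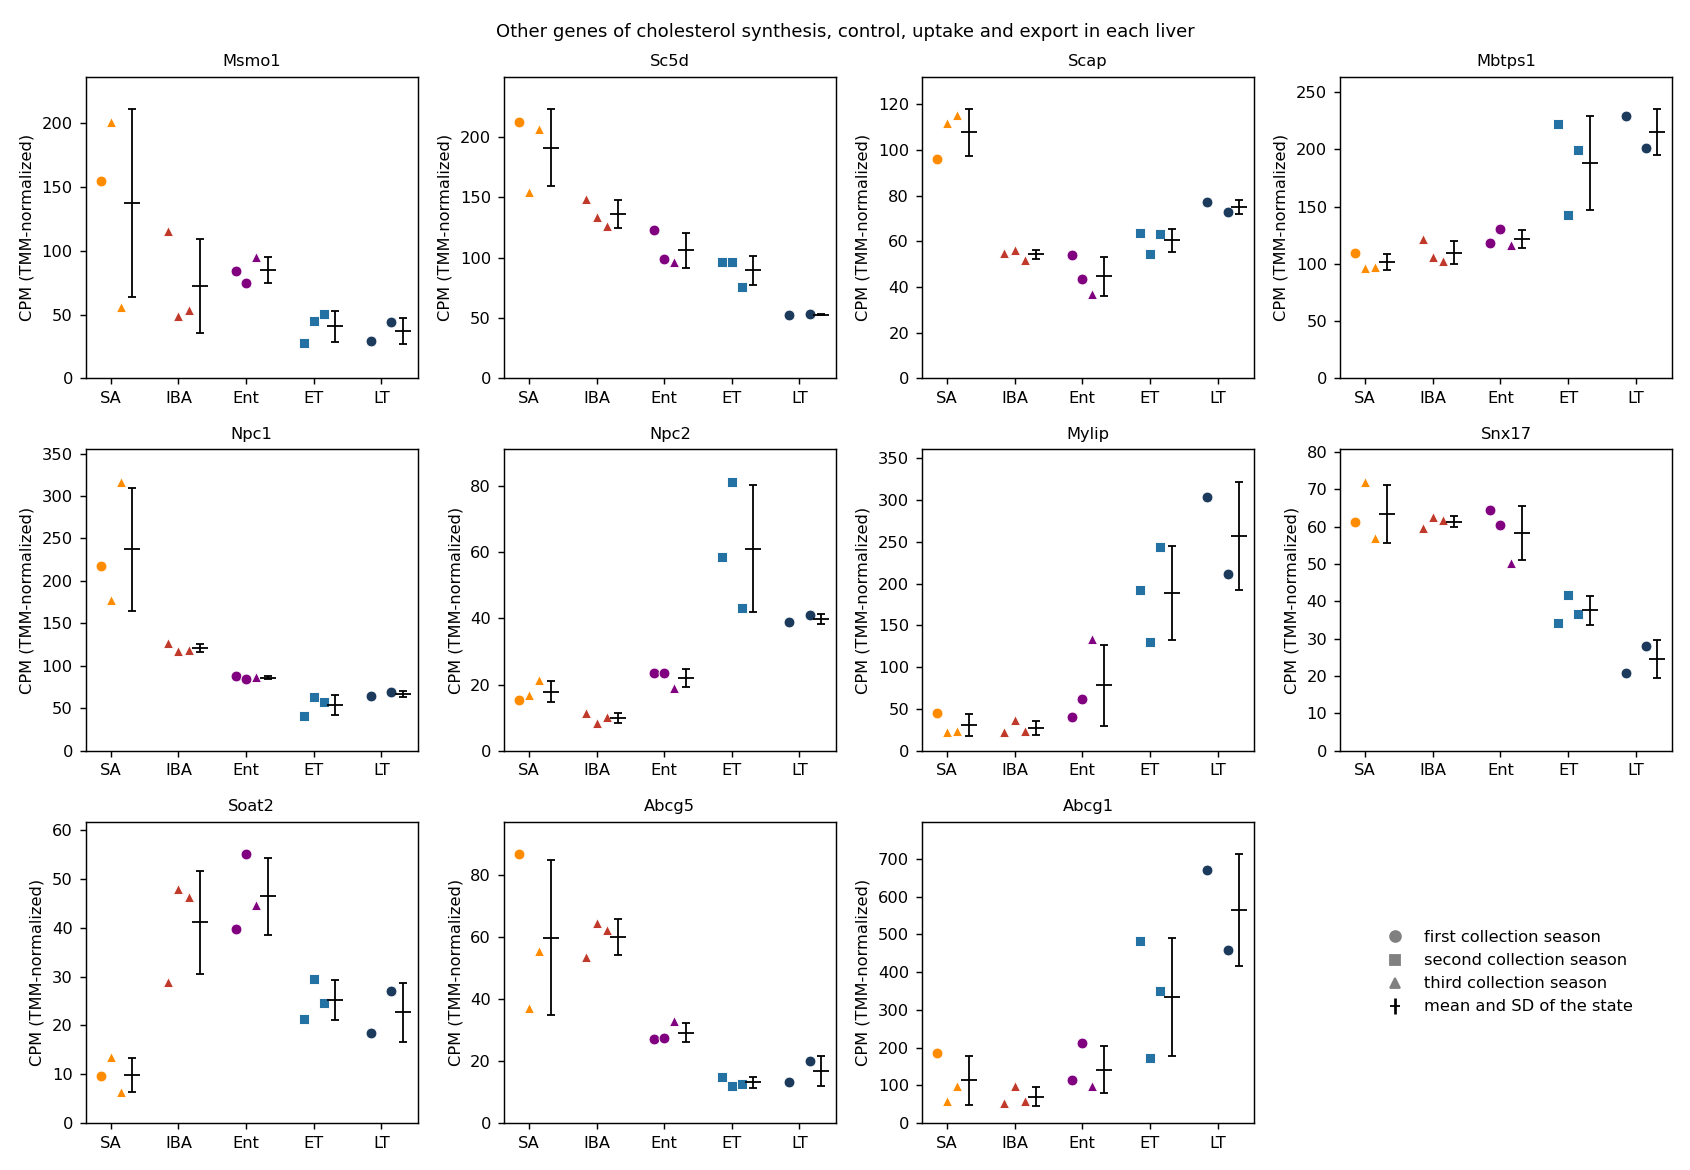
Each point is the TMM-normalized CPM of a unit of the cholesterol pathway in one liver, by state, with the mean and SD of the state beside the points and the season as the marker shape. Sc5d, Scap and Npc1 have every SA liver above every winter liver and Soat2 has every SA liver below, while Mylip reaches 303.1 CPM in LT from 22.2 to 36.2 CPM in IBA.

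The control of SREBP was read from 10 units, of which 8 were not members. Of these 8, 3 were higher and 3 lower in winter than in SA, and 4 were higher and 2 lower in torpor than in IBA, 6 of 8 in each comparison against 44.3% and 59.5% of all units. Scap, the SREBP escort, had 96.2, 111.7 and 115.1 CPM in SA and 52.0 to 56.0 in IBA, with no overlap. It was lower in IBA by 0.99 (SE 0.15, adjusted p = 0.0036) and in winter by 0.90 (SE 0.11, adjusted p = 8.7e-05). Within winter Scap was not even: it had 36.9 to 53.9 CPM in Ent, 54.6 to 63.5 in ET, and 77.1 and 72.8 in LT. Both LT livers lay above every IBA liver and below every SA liver. Madd:Nr1h3, the merged unit that holds the oxysterol receptor LXR-alpha, was also lower in winter, by 0.59 (SE 0.11, adjusted p = 0.0014).

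Mbtps1, the site-1 protease that cleaves SREBPs, rose from 102.3 to 121.3 CPM in IBA to 142.6 to 222.5 CPM in ET and 201.1 and 229.0 CPM in LT. It was higher in torpor by 0.87 (SE 0.14, adjusted p = 0.00021). The merged units G21439:Tmem41b and Ufd1:CUNH22orf39:HIRA were higher in torpor as well, by 2.00 (SE 0.19, adjusted p = 3.7e-06) and 1.08 (SE 0.15, adjusted p = 5.7e-05). Which of the merged genes gave these reads cannot be told. The paralogs of the members were named after their values had been seen. Srebf1, the gene of SREBP-1, was higher in torpor than in IBA by 1.52 (SE 0.43, adjusted p = 0.0091), whereas the Srebf2 unit was not called. Srebf1 had 106.3, 391.7 and 224.6 CPM in IBA, 808.1, 383.8 and 552.7 in ET, and 867.1 and 774.2 in LT. IBA replicate 2 thus lay above ET replicate 2, and the adjusted p of Srebf1 over the 5 states was 0.049. Insig2 was lower in torpor than in IBA by 0.76 (SE 0.23, adjusted p = 0.012). The Insig2 call was lost without IBA replicate 3 (adjusted p = 0.058) and with scaling to uniquely mapped reads (0.065). Between SA and winter Insig2 differed by 0.11 (SE 0.21, adjusted p = 0.704), where Insig1 was lower.

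Uptake and lysosomal release had 10 units, none of them a member. Between SA and winter 2 were higher and 2 lower, and between IBA and torpor 4 were higher and 3 lower, near the shares of all units called (44.3% and 59.5%). Mylip, whose product IDOL marks lipoprotein receptors for degradation, showed the largest difference of the uptake list. Its level was 22.6 to 45.6 CPM in SA and 22.2 to 36.2 in IBA, then 40.5, 62.0 and 133.1 in Ent, 130.6 to 243.2 in ET, and 303.1 and 211.8 in LT. The torpid livers did not overlap with SA or IBA, and the difference from IBA to torpor was 3.02 (SE 0.42, adjusted p = 6.9e-05). The rise from IBA to Ent of 1.53 (SE 0.43, adjusted p = 0.030) was lost without Ent replicate 3 (0.92, adjusted p = 0.132), IBA replicate 1 (adjusted p = 0.110) or IBA replicate 3 (0.102), with limma-voom (0.064), with season as a term (0.062) and with replicate number as a block (0.055). That from Ent to ET of 1.27 (SE 0.41, adjusted p = 0.035) was lost without Ent replicate 1 (0.95, adjusted p = 0.121), Ent replicate 2 (0.111), ET replicate 1 (0.074) or ET replicate 3 (0.116), and with the replicate block (0.051).

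Npc1 and Npc2, which pass cholesterol out of the lysosome together, moved in opposite directions from IBA to torpor. Npc1 had 217.2, 177.1 and 316.9 CPM in SA, 117.5 to 126.7 in IBA, 84.4 to 87.8 in Ent, 41.2 to 63.0 in ET, and 64.7 and 69.4 in LT. It fell by 1.60 from SA to winter (SE 0.14, adjusted p = 1.4e-05), with no overlap between SA and winter livers, and by 1.01 from IBA to torpor (SE 0.18, adjusted p = 0.00034). Npc2 had 15.4 to 21.4 CPM in SA, 8.36 to 11.4 in IBA, 19.0 to 23.5 in Ent, 43.1 to 81.3 in ET, and 38.8 and 40.9 in LT. It was higher in torpor than in IBA by 2.31 (SE 0.23, adjusted p = 5.9e-06). Its winter call of 0.59 (SE 0.19, adjusted p = 0.026) was lost without SA replicate 1 (adjusted p = 0.111) or SA replicate 2 (0.083), with limma-voom (0.089), and with ET left out (0.21, adjusted p = 0.332). From SA to IBA, Npc1 was lower by 0.97 (SE 0.20, adjusted p = 0.014), a call lost without IBA replicate 2 (0.053) or IBA replicate 3 (0.069) and in the third season alone (0.0895). Npc2 differed by -0.85 there (SE 0.24, adjusted p = 0.062, and 0.021 with DESeq2), and neither gene had overlapping SA and IBA livers. Snx17, which returns lipoprotein receptors to the cell surface, was lower in torpor by 1.01 (SE 0.14, adjusted p = 6.1e-05).

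**Figure D4:**
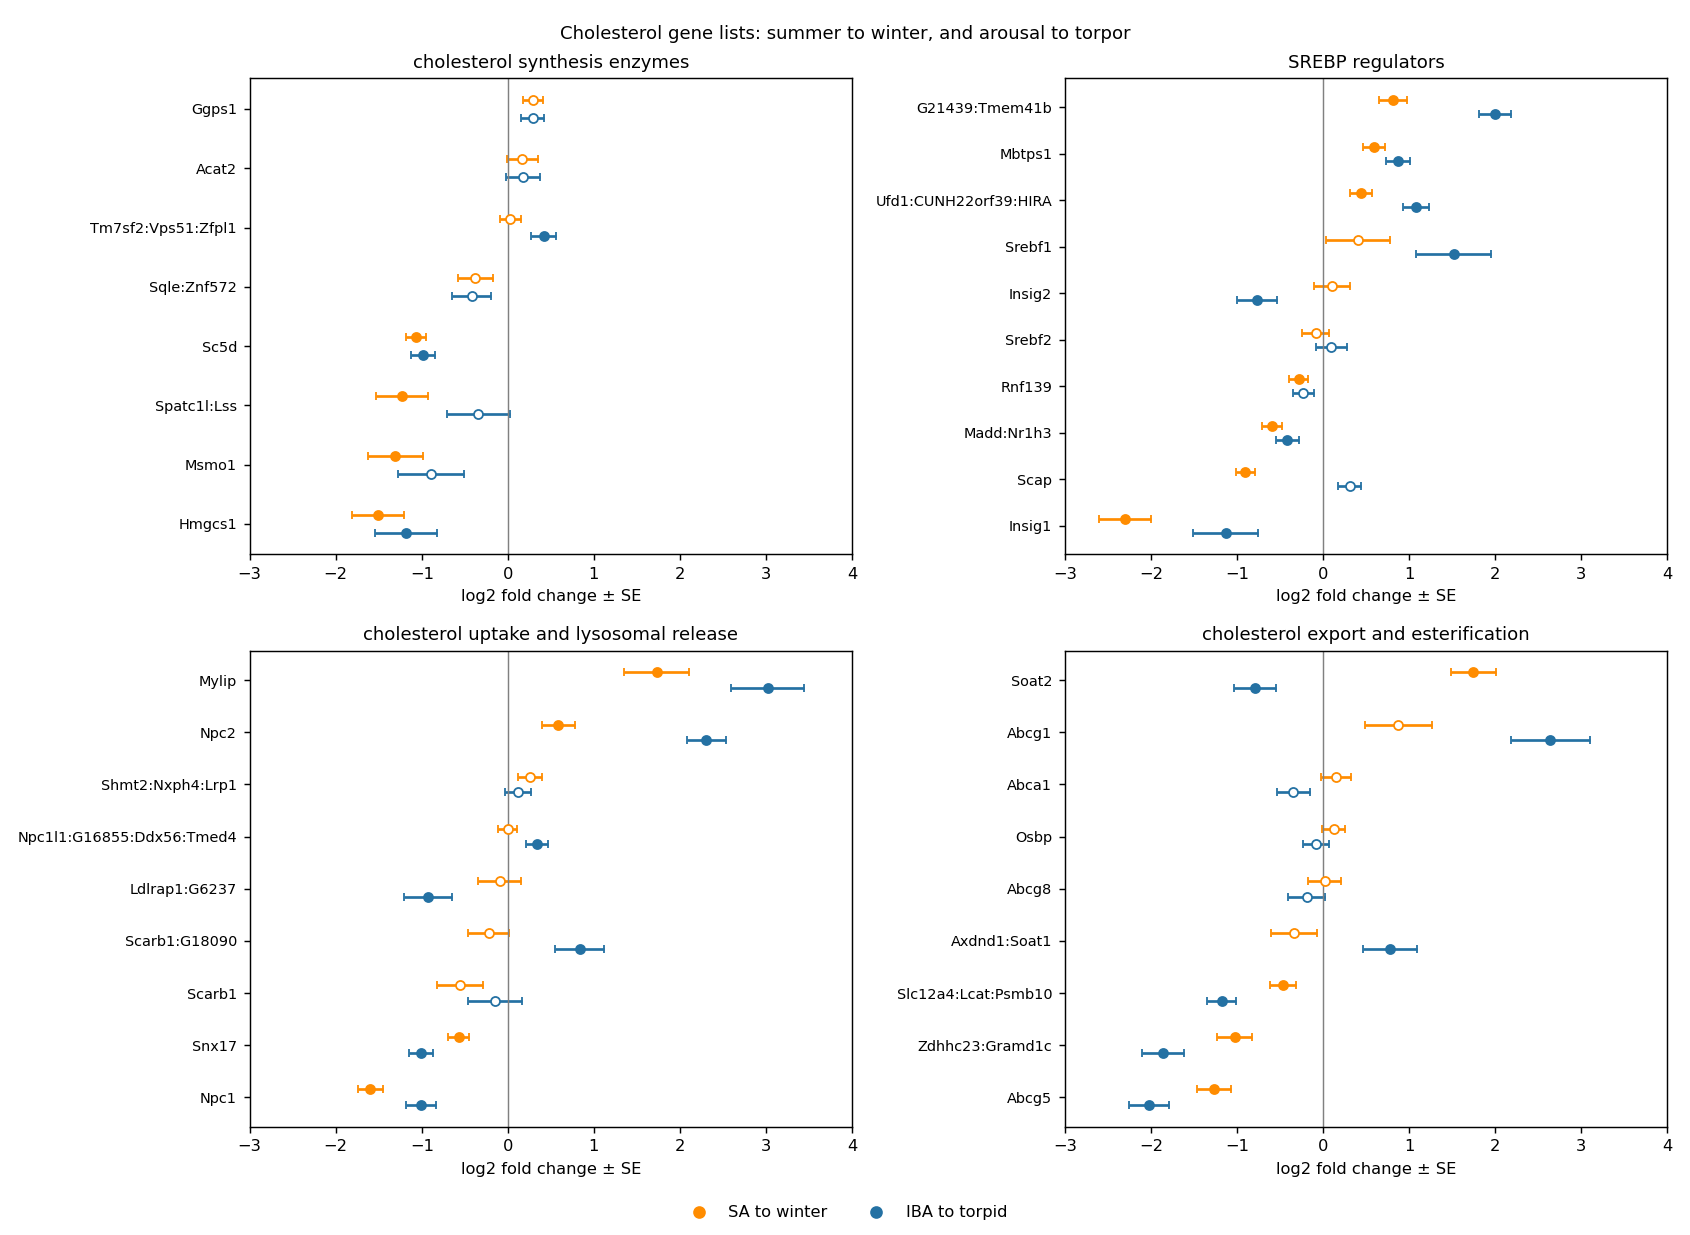
The log2 fold change with its SE is drawn for the units of the 4 cholesterol lists that are reported here, from SA to winter and from IBA to torpor (ET and LT), and filled points passed the adjusted p of 0.05. In the synthesis panel the 4 filled winter points all lie left of 0, while the regulator, uptake and export panels have filled points on both sides.

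Export and esterification had 9 units, none a member, with 1 higher and 3 lower in winter than in SA and 2 higher and 4 lower in torpor than in IBA, again near the shares of all units (44.3% and 59.5%). Soat2, which esterifies cholesterol in hepatocytes and enterocytes, had 9.64, 13.5 and 6.42 CPM in SA against 29.0, 48.1 and 46.3 in IBA and 39.7, 55.2 and 44.6 in Ent. The ET livers had 21.4 to 29.5 CPM and the LT livers 18.4 and 27.0 CPM. It rose by 2.10 from SA to IBA (SE 0.30, adjusted p = 0.0029), where Insig1 fell, and every SA liver was below every winter liver. In the third season alone the difference was 2.11 (adjusted p = 0.052).

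Abcg5, which as a pair with ABCG8 secretes sterols into bile, had 37.1 to 86.8 CPM in SA and 53.4 to 64.4 in IBA, but 27.2 to 32.8 in Ent, 11.8 to 14.9 in ET, and 13.3 and 20.03 in LT. It fell by 2.02 from IBA to torpor (SE 0.24, adjusted p = 1.8e-05). Its partner Abcg8 had state means of 240.7 to 326.3 CPM and was not called over the 5 states (adjusted p = 0.559) or from IBA to torpor, where it differed by -0.19 (95% interval -0.66 to 0.28, adjusted p = 0.473). Abcg1, a transporter that loads sterol onto HDL, went the other way and was 3.02 lower in IBA than in LT (SE 0.52, adjusted p = 0.00050), from 459.3 and 670.1 CPM in LT to 52.9 to 97.6 CPM in IBA. The merged units Slc12a4:Lcat:Psmb10 and Zdhhc23:Gramd1c were lower in torpor, by 1.18 (SE 0.17, adjusted p = 8.7e-05) and 1.86 (SE 0.24, adjusted p = 3.7e-05).

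Over the 34 non-member units of the 4 lists, 6 were higher and 12 lower in winter than in SA, with a median of -0.05, and 11 were higher and 11 lower in torpor than in IBA, with a median of 0.02, where 44.3% and 59.5% of all units were called. In the synthesis list including members, 6 of 10 units were lower in winter and none higher, with a median of -0.88, against 23.5% of all units lower. The list holds Hmgcs1 and Spatc1l:Lss, already counted among the members, and was chosen with earlier results of these data known. Its share is a description and not a test.

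Finally, the pattern of the members across livers was compared with every other single-gene unit. The log2 CPM of each member was standardized over the 14 libraries and averaged. Hmgcs1 correlated most closely with this mean (r = 0.941), followed by Spatc1l:Lss (0.892), Sqle:Znf572 (0.798), Insig1 (0.700) and the Srebf2 unit (0.375). Each member is itself part of the mean, which raises its r, so these values cannot be set against those of non-members. The 8 non-member units with the highest Pearson r included the synthesis enzyme Msmo1 (0.881), Cdk5rap3 (0.877), Ptprj (0.874), Tead1 (0.865), Abtb2 (0.855), Znf473 (0.849) and Apba2 (0.846). The livers of one state share their physiology and, in part, their season, so these values describe likeness over 14 libraries and carry no test.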

How the data were processed

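Nuclei from frozen liver were used for GRO-seq in 15 animals. LT replicate 2 has no column among the counts and was not used here. The authors trimmed the reads with cutadapt, aligned them to HiC_Itri_2 with BWA, extended annotated genes where fstitch called transcription past the 3' end, merged overlapping genes, removed the first 500 nt after the start site, and ran featureCounts to count uniquely aligned reads on each unit. What they deposited are these raw counts, without normalization. Gene bodies that were lengthened or merged this way can hold reads of more than one gene.

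Counts of all 6324 units and 14 libraries were fitted in edgeR 4.0.16 (R 4.3.3, TMM, quasi-likelihood, state as the only term), and p-values were adjusted by the Benjamini-Hochberg method over all units. Filtering with filterByExpr removed 0 units. Intervals are 95% intervals of the fitted log2 difference. The libraries are separate animals, and no pair agreed within counting noise. Results were also computed with DESeq2 1.42.0, with voom in limma 3.58.1, and with other scalings, low-count filters, single-gene units alone, an adjusted p of 0.001, replicate number as a block, season (taken by animal number from the study's animal table), and each library left out. The steps were tested on simulated counts.

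The members and the gene lists were chosen with earlier results of these data known. Of the 4 cholesterol lists, units called in a comparison are named, at most 10 by smallest p, together with the 8 units most like the members and any upstream neighbour within 20000 nt. Msmo1 and Npc2 in the seasonal comparison, Npc1 and Tm7sf2:Vps51:Zfpl1 in torpor, Npc2 from SA to IBA, Abcg8, Srebf1 and Insig2 are named beyond this rule, after their values were seen. Some units of the lists enter the counts but are not reported here. Coordinates are those of the deposited table, and no sequence of this build was used.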

Additional observations from a re-analysis of the deposited data

How the results depend on the processing

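The number of members called changed by more than 1.5 times as follows. With limma-voom it was 0 for SA to IBA and 1 for LT to IBA, and with scaling to uniquely mapped reads 0 for LT to IBA. With single-gene units alone, where the 3 merged units were not fitted, it was 2 over the 5 states and 0 for Ent to ET. At an adjusted p of 0.001 it was 1 over the 5 states, 0 for SA to IBA, Ent to ET, LT to IBA and IBA to torpor, and 1 for SA to winter. With season as a term and without ET it was 0 for LT to IBA. With each library left out in turn it ranged from 2 to 4 over the 5 states, 0 to 1 for SA to IBA, 0 to 2 for Ent to ET and LT to IBA, 2 to 4 for SA to winter and 1 to 3 for IBA to torpor, and stayed at 0 for IBA to Ent and ET to LT.

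Signs turned only for differences that were not called. The Srebf2 unit was at 0.018 for IBA to Ent and -0.000917 for ET to LT with upper-quartile scaling, and at 0.12, -0.047 and (SA to winter) 0.067 with scaling to uniquely mapped reads, where Hmgcs1 was at 0.072 for IBA to Ent. The Srebf2 unit was at 0.048 for SA to IBA and 0.28 for LT to IBA with the season term, and at 0.13 for SA to IBA in the third season alone. With single libraries left out it ranged from -0.28 to 0.13 (SA to IBA), -0.13 to 0.13 (IBA to Ent), -0.11 to 0.16 (ET to LT), -0.27 to 0.028 (LT to IBA), -0.23 to 0.17 (SA to winter) and -0.0074 to 0.25 (IBA to torpor). Sqle:Znf572 ranged from -0.58 to 0.061 for SA to IBA, and for IBA to Ent Hmgcs1 ranged from -0.45 to 0.22, Insig1 from -0.10 to 0.36 and Spatc1l:Lss from -0.58 to 0.082. Spatc1l:Lss ranged from -0.47 to 0.19 for Ent to ET, -0.37 to 0.42 for ET to LT and -0.038 to 0.75 for LT to IBA. The causes were not tested.

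Replicate numbers did not pair the livers: over 26 same-numbered pairs of different states the correlation of deviations ran from -0.26 to 0.23 (median 0.03). The block on replicate number gave 1 member for LT to IBA, put the Srebf2 unit at -0.037 for ET to LT, and lowered the calls over all units from 3924 to 3674 over the 5 states and from 17 to 4 for ET to LT.

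With scaling to uniquely mapped reads, the median log2 difference of all units was 0.14 for IBA to Ent and 0.10 for Ent to ET. It was -0.14 for LT to IBA, 0.14 for SA to winter and 0.18 for IBA to torpor. With TMM these medians were -0.002, -0.01, 0.05, -0.02 and -0.04 in the same order. The share of calls that were higher went from 54.4% to 77.4%, 53.3% to 67.5%, 50.2% to 37.4%, 47.1% to 64.5% and 49.0% to 63.5% in the same order. Over all units DESeq2 called 686 for SA to IBA and 116 for ET to LT, against 330 and 17 in edgeR, where upper-quartile scaling gave 7 and scaling to uniquely mapped reads 30 for ET to LT. With 2 or 3 livers per state, calls depended on the spread of each unit. From Ent to ET, edgeR did not call Hmgcs1 at -0.94 (SE 0.41, adjusted p = 0.103). It called Sqle:Znf572 at -0.89 (SE 0.26, adjusted p = 0.020).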
